A study of Mus musculus with 30 samples.

Results

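The NRF2-type antioxidant genes described here are the factor gene Nfe2l2 and 9 genes of the enzymes and transporter it is known to drive, Nqo1, Hmox1, Gclc, Gclm, Txnrd1, Srxn1, Slc7a11, Prdx1 and Gsr. They were taken by name as 10 of the 55401 gene rows of one count table. The cells were a mouse B cell lymphoma line of genotype Eµ-Myc; p19ARF-/-, so the Myc transgene and the loss of p19ARF are shared by every library. Lines labelled paclitaxel resistant (17 libraries) were kept in separate wells and given, in repeated cycles over 12-18 weeks, 3 days of paclitaxel at a dose killing 85% of cells and 4 days without drug. The lines labelled DMSO control (12 libraries) went through the same cycles with the solvent, and 1 library came from the parental line. All lines descend from one parental culture, and the B-cell medium of every line contained 5 µM mercaptoethanol, a thiol reductant.

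NRF2, the protein made from Nfe2l2, is held low in resting cells because KEAP1 hands it to a ubiquitin ligase for breakdown. Oxidants and electrophiles block this step, and NRF2 then pairs with a small MAF protein on antioxidant response elements near genes for glutathione synthesis, thioredoxin reduction, quinone reduction and heme breakdown. NRF2 is thus set largely at the protein level, which RNA counts do not show.

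The core letters of the response element occur in promoter windows of several of these genes, where binding of NRF2 was not tested. RefSeq windows (build GRCm38.p6, 250 bases before to 50 bases after a start site) were given for 7 of the 10 genes, in 9 windows, with none for Hmox1, Gclc and Gsr. The core TGACNNNGC, read on both strands, was found in 5 of these 9 windows, 1 for each of 5 genes. The share over the 32851 windows read, which left out 1 chromosome, was 12.4%. The AP-1 site TGAGTCA, read on both strands, was found in 2 of the 9, against 5.20%. The 250 bases before the start site are printed for these 5 genes, 5′ to 3′ on the gene's strand, because they show which genes carry the letters of the element. Capitals mark matches to either motif.
Nfe2l2 (chr2:75704664-75704913, minus strand): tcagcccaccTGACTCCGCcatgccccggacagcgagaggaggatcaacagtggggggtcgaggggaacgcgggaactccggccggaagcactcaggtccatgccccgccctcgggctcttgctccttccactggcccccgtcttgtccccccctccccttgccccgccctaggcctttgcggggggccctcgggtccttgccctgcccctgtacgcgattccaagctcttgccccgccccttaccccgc
Gclm (chr3:122245307-122245556, plus strand): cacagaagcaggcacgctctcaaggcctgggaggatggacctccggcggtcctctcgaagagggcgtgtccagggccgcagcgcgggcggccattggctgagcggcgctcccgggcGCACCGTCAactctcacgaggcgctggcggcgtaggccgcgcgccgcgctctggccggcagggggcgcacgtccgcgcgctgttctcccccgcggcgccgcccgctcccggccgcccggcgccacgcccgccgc
Txnrd1 (chr10:82858956-82859205, plus strand): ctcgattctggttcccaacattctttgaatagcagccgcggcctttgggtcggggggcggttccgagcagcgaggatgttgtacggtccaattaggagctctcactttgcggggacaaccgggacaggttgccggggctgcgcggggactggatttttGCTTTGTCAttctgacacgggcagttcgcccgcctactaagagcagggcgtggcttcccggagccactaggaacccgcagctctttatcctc
Prdx1 (chr4:116685349-116685598, plus strand): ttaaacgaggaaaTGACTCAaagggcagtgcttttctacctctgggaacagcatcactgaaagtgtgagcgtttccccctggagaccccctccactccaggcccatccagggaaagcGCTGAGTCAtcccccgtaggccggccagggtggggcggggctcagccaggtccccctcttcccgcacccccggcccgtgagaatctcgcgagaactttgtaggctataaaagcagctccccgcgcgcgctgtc
Srxn1 (chr2:152105274-152105523, plus strand): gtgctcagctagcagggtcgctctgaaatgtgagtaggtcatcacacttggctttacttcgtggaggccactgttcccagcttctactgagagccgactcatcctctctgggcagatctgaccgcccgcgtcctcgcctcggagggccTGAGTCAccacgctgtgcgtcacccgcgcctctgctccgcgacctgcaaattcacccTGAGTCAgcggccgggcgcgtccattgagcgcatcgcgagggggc
The core began 240 bases before the start site in Nfe2l2, 134 in Gclm, 92 in Txnrd1 and 133 in Prdx1, where an AP-1 site overlapped it. In Srxn1 the 2 capital stretches are AP-1 sites, and its core match began at base 28 after the start site, outside the printed stretch. The Txnrd1 window is 1 of 3 for that gene, and the other two held no core. Nqo1 and Slc7a11 held neither motif in these windows, which leaves more distant sequence unread.

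Libraries were of the 3′-end digital gene expression type, which counts the 3′ ends of transcripts, and their totals ran from 480919 to 6739131 counts. All 14 B cell markers had counts, with a summed level of 3918 to 6949 CPM (counts per 1000000 counts, scaled here by edgeR's TMM factors) in DMSO control and 2350 to 6959 in paclitaxel resistant libraries. The T cell markers Cd3e, Cd4 and Trbc2 were at 0 in every library, and the T cell list summed to at most 24.3 CPM, the myeloid list to 57.8, the erythroid list to 1.94 and the fibroblast and epithelial list to 0.849. Over all tested genes, 10 of 12 DMSO control libraries and 15 of 17 paclitaxel resistant libraries lay nearer to the mean of the other libraries of their own treatment. The libraries labelled DMSO 11, DMSO 12, Pac C1 and Pac H9 lay nearer to the other treatment. The fits below were repeated without the libraries labelled DMSO 12 and Pac H9, and without those labelled DMSO 11 and Pac C3. Pac C3 itself lay nearer to its own treatment. Pac C1 stayed in both of these repeats and was left out in the fit without libraries under 1000000 counts. The labels may be out of step by 1 library from DMSO 12 onwards, which was not settled here. Every Pac name below, DMSO 12 and the parental name are thus the names the libraries carry, and a value may belong to another line. Each line had 1 library, so the p-values rest on the spread between lines.

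In such bulk libraries fewer cells with a transcript and less of it per cell cannot be told apart. Of the 10 genes, 7 passed the filter on low counts and were tested among 9445 genes. Srxn1, whose product sulfiredoxin repairs over-oxidized peroxiredoxins (chr2:152105516-152111376, this and the following positions on GRCm38 by gencode M21), had 0 counts in all 30 libraries. A count of 0 allows up to 3 counts, or 0.437 CPM in the largest library and 6.27 CPM in the smallest. Slc7a11, the cystine-importing subunit of the cystine/glutamate exchanger (chr3:49892526-50443614), had 2 counts in the library labelled Pac F10, 2 in Pac H4 and 0 in the other 28. Neither gene passed the filter on low counts, and for Slc7a11, with a median of 0 in both treatments, a two-sided rank-sum permutation test gave an unadjusted p of 0.498. Nqo1, the quinone reductase often used as a readout of NRF2 activity (chr8:107388225-107403206), had 24 counts over 7 of 12 DMSO control libraries and 67 counts over 10 of 17 paclitaxel resistant libraries. Its level ran from 0 to 1.46 CPM (median 0.298) in DMSO control and from 0 to 6.00 CPM (median 0.600) in paclitaxel resistant libraries, the highest being Pac C3 with 7 counts and the largest count 21, in Pac G9. The groups overlapped, and a two-sided rank-sum permutation test gave an unadjusted p of 0.269. The parental library had 0 counts of Nqo1. Thus 3 genes of the set were at or near the counting floor in most lines of either treatment.

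Nfe2l2 itself (chr2:75675513-75704641, minus strand) was present in every library, with 42 to 1080 counts. In DMSO control lines it ran from 103 CPM in DMSO 11 to 219.5 CPM in DMSO 9, with a median of 152 and a mean of 152 ± 28.6 (SD, n = 12). In paclitaxel resistant lines it ran from 66.3 CPM in Pac D4 to 194 CPM in Pac E2, with a median of 125 and a mean of 127 ± 39.2 (SD, n = 17). The 5 lowest paclitaxel resistant libraries, Pac D4, F10, C11, A6 and C1, lay under every DMSO control library, and the rest overlapped. The log2 fold change, paclitaxel resistant over DMSO control, was −0.26 ± 0.15 (SE), with an adjusted p of 0.280 in edgeR's quasi-likelihood test, which did not pass the threshold of 0.01. The rank-sum permutation test gave an unadjusted p of 0.0657, and 0.0403 without the libraries labelled DMSO 12 and Pac H9. The parental library held 156 CPM, near the median of the DMSO control lines.

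Gclc and Gclm, the catalytic and the modifier subunit of glutamate-cysteine ligase, the first enzyme of glutathione synthesis, did not pass the test between treatments. Gclc (chr9:77754535-77794485) ran from 20.2 to 150 CPM (median 36.2, mean 44.7 ± 34.7 SD, n = 12) in DMSO control lines and from 11.1 to 94.4 CPM (median 26.6, mean 36.0 ± 26.3 SD, n = 17) in paclitaxel resistant lines. The library labelled DMSO 11 held the 150 CPM, and the next DMSO control library 52.5. At the lower end, 6 paclitaxel resistant libraries lay under every DMSO control library. These were Pac C1 with 7 counts of Gclc, C3 with 13, D10 with 15, H9 with 16, H8 with 22 and E2 with 83. The log2 fold change of Gclc was −0.29 ± 0.32 (SE, adjusted p = 0.600, edgeR), and without DMSO 11 it turned to 0.12 (adjusted p = 0.823). With total counts as a covariate it was −0.06 ± 0.28 (SE, adjusted p = 0.907, edgeR). Gclm (chr3:122245557-122270732) ran from 7.68 to 48.8 CPM (median 16.9) in DMSO control and from 8.36 to 47.1 CPM (median 21.6) in paclitaxel resistant lines, which lay inside the DMSO control range. Its log2 fold change was 0.14 ± 0.25 (SE, adjusted p = 0.769), and 0.39 without DMSO 11 (adjusted p = 0.271). The antisense gene Gm17494 overlaps Gclm and took 893 counts over all libraries, and whether counting used strand is not given in the sources used here, so reads from the pair may not be told apart. The parental line held 33.4 CPM of Gclc and 16.7 of Gclm, inside the range of both treatments.

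Gsr, glutathione reductase, which returns oxidized glutathione to its reduced form (chr8:33652523-33698163), had the largest difference between treatments among the 7 tested genes. DMSO control lines ran from 3.14 to 26.4 CPM, with a median of 6.07 and a mean of 7.70 ± 6.07 (SD, n = 12). Paclitaxel resistant lines ran from 2.72 to 38.4 CPM, with a median of 8.46 and a mean of 14.9 ± 12.2 (SD, n = 17). Of the DMSO control lines only DMSO 11 stood above 8.09 CPM, while Pac A6 (38.4), D4 (35.7), G9 (32.2) and F10 (30.6) lay above every DMSO control library and C11 (25.02) just under DMSO 11. The counts behind these values were 119 to 201 in those libraries and as low as 3 in Pac H9. The log2 fold change was 0.95 ± 0.38 (SE, unadjusted p = 0.0181, adjusted p = 0.118, edgeR), which did not pass 0.01. Without DMSO 11 the fold change was 1.39 and the adjusted p 0.0176, and over the other alternatives the adjusted p ran up to 0.522. The rank-sum permutation test gave an unadjusted p of 0.0653, and 0.0224 without the libraries labelled DMSO 12 and Pac H9. The parental library held 11.3 CPM, above 11 of the 12 DMSO control lines.

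The genes of the thioredoxin branch overlapped between treatments and did not pass the test. Txnrd1, the cytosolic thioredoxin reductase (chr10:82833951-82897712), ran from 13.7 to 73.9 CPM (median 23.4) in DMSO control and from 13.6 to 54.8 CPM (median 22.99) in paclitaxel resistant lines, with a log2 fold change of 0.11 ± 0.23 (SE, adjusted p = 0.802, edgeR). Again DMSO 11 was the highest library, with the next DMSO control line at 32.8 CPM, and without it the log2 fold change was 0.41 (adjusted p = 0.192). Prdx1, a peroxiredoxin that removes hydrogen peroxide with electrons from thioredoxin (chr4:116685544-116700822), ran from 1132 to 2712 CPM (median 2271) in DMSO control and from 791 to 4219 CPM (median 2077) in paclitaxel resistant lines. Pac C11 and F10 lay below and Pac E1, B2, C1 and H9 above every DMSO control library, so the paclitaxel resistant lines passed the DMSO control range on both sides. The log2 fold change of Prdx1 was −0.08 ± 0.19 (SE, adjusted p = 0.822). Near-identical copies of Prdx1, Gm21399 and Gm7204, took 222 and 82 counts over all libraries against 213673 for Prdx1.

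Hmox1, heme oxygenase, which opens the heme ring and is induced by heme and oxidants (chr8:75093621-75100589), varied strongly from line to line in both treatments. It ran from 0 to 20.97 CPM (median 9.28) in DMSO control and from 0 to 41.8 CPM (median 8.71) in paclitaxel resistant lines. The libraries at 0 were DMSO 9 and Pac H9, where a count of 0 allows up to 2.98 and 2.72 CPM, and DMSO 12 held 1 count. The highest value, 41.8 CPM in Pac C1, rests on 20 counts in the smallest library, and Pac G9 with 148 counts held 23.7 CPM. The log2 fold change was −0.01 ± 0.45 (SE, adjusted p = 0.994).

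**Figure D1:**
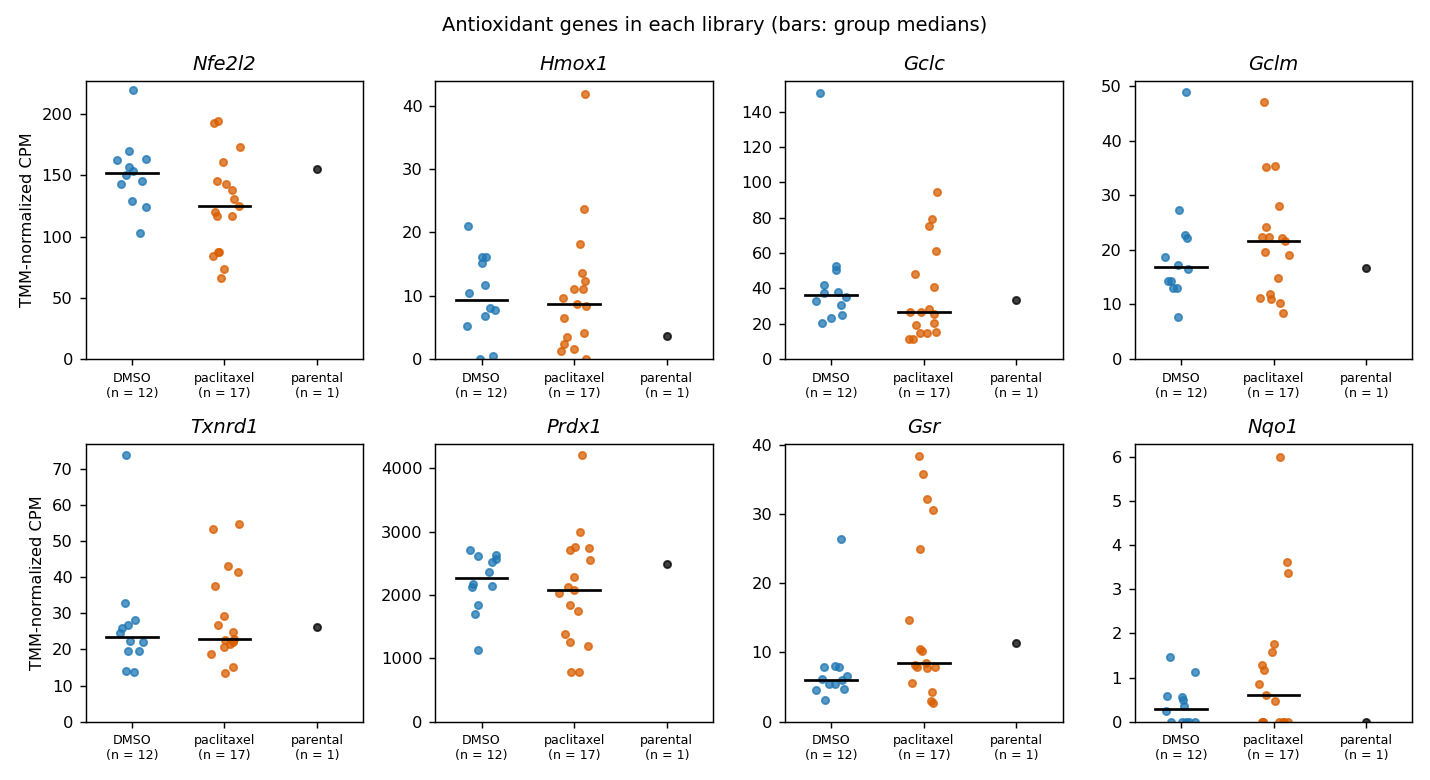
Level of 8 of the genes in each library, as TMM-normalized CPM on a linear axis from 0, with 1 point a library, for 12 DMSO control, 17 paclitaxel resistant and 1 parental library; bars are group medians. The treatments overlap for every gene, and DMSO 11 is the highest DMSO control point of Gclc (150), Gclm (48.8), Txnrd1 (73.9) and Gsr (26.4).

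In total 0 of the 7 tested genes passed the threshold between treatments by edgeR's quasi-likelihood test, its likelihood ratio test or DESeq2, and 1 of 7, Gsr, had an unadjusted p under 0.05 in each, beside 25.1% of all 9445 genes by the quasi-likelihood test. Of all 9445 genes, 208 passed by the quasi-likelihood test (2.20%), with 94 higher and 114 lower in paclitaxel resistant lines. The median log2 fold change was −0.01 over the 7 genes and 0.07 over all tested genes. Without the libraries labelled DMSO 12 and Pac H9, 0 of the 7 passed as well, with Gsr at 1.00 ± 0.39 (SE, adjusted p = 0.0980) and Nfe2l2 at −0.31 ± 0.16 (SE, adjusted p = 0.209).

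**Figure D2:**
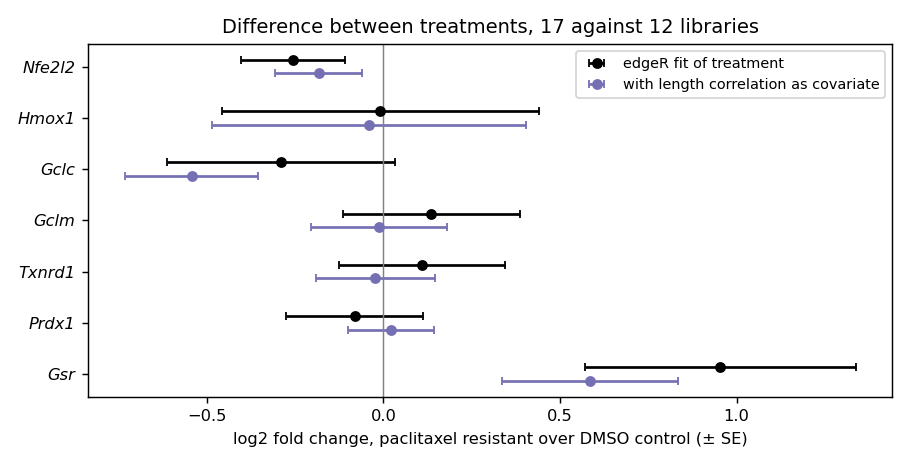
Log2 fold change (x axis, paclitaxel resistant over DMSO control) of the 7 tested genes with its SE, in the fit of treatment (black) and with each library's transcript-length correlation as a covariate (violet). Gsr lies furthest from 0, at 0.95 and 0.58, and Gclc goes from −0.29 to −0.54.

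The spread among lines of one treatment was compared next. The SD of log2 CPM among lines was 0.70 in DMSO control and 1.15 in paclitaxel resistant lines for Gsr, 0.36 and 0.67 for Prdx1, 0.27 and 0.47 for Nfe2l2, and 0.74 and 0.98 for Gclc. For Gclm (0.64 and 0.68), Txnrd1 (0.62 and 0.58) and Hmox1 (1.62 and 1.53) it was close in both. Several of these DMSO control values rested on DMSO 11. Without it the SD in DMSO control was 0.37 for Gsr, 0.22 for Prdx1, 0.43 for Gclc, 0.48 for Gclm and 0.39 for Txnrd1. In a limma test of the absolute deviations, 0 of the 7 genes passed 0.01, with an unadjusted p of 0.0323 for Gsr (adjusted p = 0.204) and 0.0478 for Prdx1 (adjusted p = 0.228), the 2 genes under 0.05. Over all 9445 genes 5 passed, or 0.0529%, and 21.6% had an unadjusted p under 0.05. Without DMSO 11 and Pac C3, 4 of the 7 were under 0.05, beside 28.8% of all 9468 genes tested in that fit, and the adjusted p was 0.0365 for Gsr, 0.0648 for Prdx1, 0.0782 for Gclc and 0.128 for Nfe2l2.

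The levels of several of these genes moved with one property of the libraries. For each library the deviation of 3698 well-expressed genes from their mean, with the 10 antioxidant genes left out, was correlated with the length of the longest annotated transcript. This length correlation (Spearman rho) was 0.226 to 0.343 in 6 libraries, DMSO 11, Pac A6, C11, D4, F10 and G9, and −0.286 to 0.0787 in the other 23 of both treatments, and it was 0.162 in the parental library. Gsr ran from 25.02 to 38.4 CPM in these 6 libraries and from 2.72 to 14.6 in the other 23. Txnrd1 ran from 37.5 to 73.9 CPM in the 6 and from 13.6 to 32.8 in the others, so that both genes were apart without overlap, as were 5.09% of all 9445 tested genes, 3.88% being higher in the 6. Gclc ran from 47.9 to 150 CPM in the 6 and from 11.1 to 52.5 in the others, and Gclm from 21.6 to 48.8 and from 7.68 to 28.1, both with some overlap. Prdx1 went the other way, with 791 to 1745 CPM in the 6 and 1384 to 4219 in the others. Nfe2l2 was among its 6 lowest values in 5 of these libraries (66.3 to 103 CPM), while Pac G9 held 173 CPM, one of its higher values. Hmox1 showed no such order, with 1.60 to 23.7 CPM in the 6 and 0 to 41.8 in the others.

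The same 6 libraries differed in other respects only in part. Mitochondrial transcripts took 12.4% of counts in DMSO 11, 11.9% in Pac D4 and 10.1% in C11, but 2.30% to 3.83% in A6, F10 and G9, and 1.34% to 7.39% in the other 23. Their TMM factors, which scale the CPM, ran from 1.12 to 1.26 in the 5 paclitaxel resistant libraries and were 1.02 in DMSO 11, against 0.886 to 1.01 in the other libraries but for Pac D7 at 1.10. Their totals ran from 2640319 to 6739131 counts, inside the range of the others but for DMSO 11, the largest. With the length correlation as a covariate, a choice made after the data were seen, the log2 fold change between treatments was 0.58 ± 0.25 for Gsr (SE, adjusted p = 0.126, edgeR) and −0.54 ± 0.19 for Gclc (adjusted p = 0.0570). Without the 6 libraries it was 0.30 ± 0.25 for Gsr (adjusted p = 0.522) and −0.69 ± 0.20 for Gclc (adjusted p = 0.0400), and 0 of the 7 genes passed 0.01. What sets the length correlation, the cells or the making of the libraries, was not tested, and which lines shared a library subpool is not given in the sources used here.

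**Figure D3:**
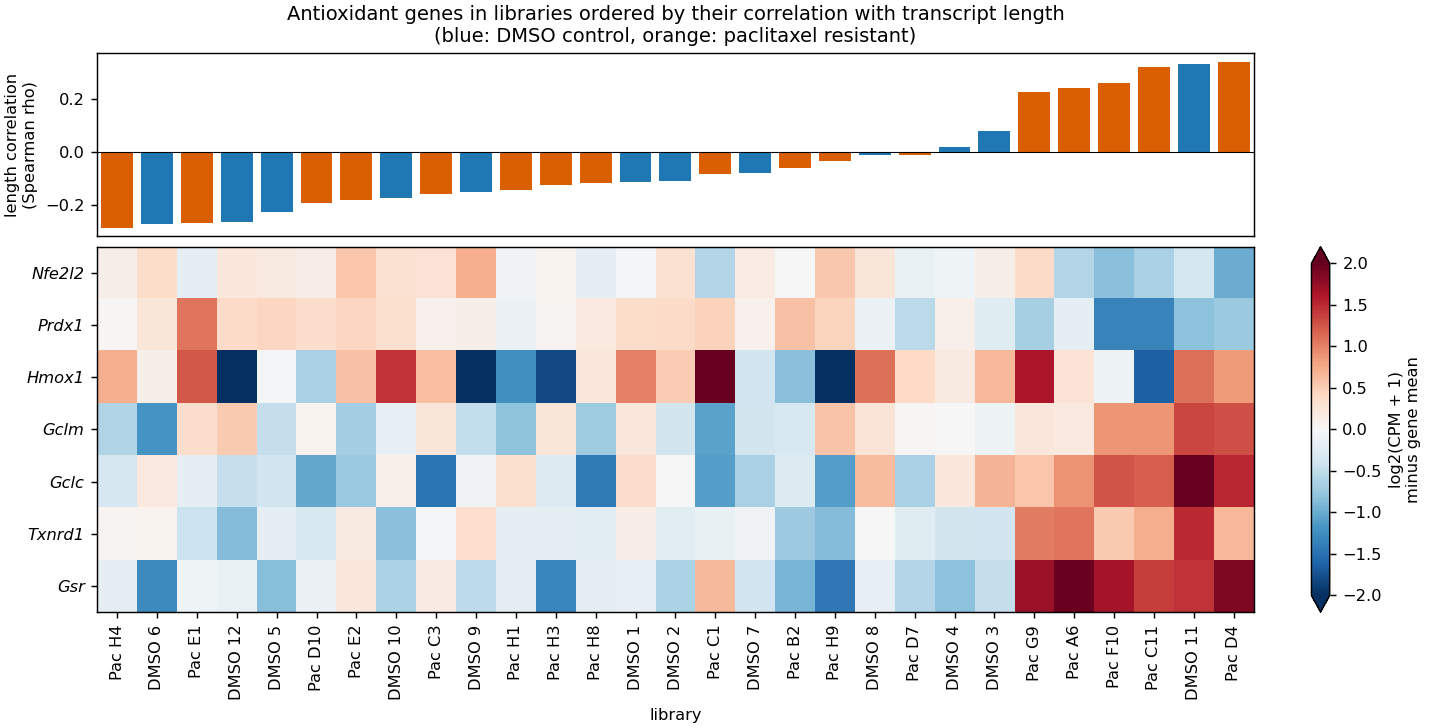
The 29 libraries of both treatments ordered by length correlation (bars, Spearman rho, blue for DMSO control and orange for paclitaxel resistant) above a colour map of log2(CPM + 1) minus the mean over libraries for the 7 tested genes. At the right end, in the 6 libraries from 0.226 to 0.343, Gsr, Txnrd1, Gclc and Gclm are high and Prdx1 is low.

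Whether the enzymes followed the mRNA of their factor across lines was asked with a slope of each gene on log2 CPM of Nfe2l2, with treatment in the model. Gclc and Gsr had negative slopes past the threshold, so lines with more Nfe2l2 mRNA had less of both. The slope, in log2 units per log2 unit of Nfe2l2, was −1.48 ± 0.28 for Gclc (SE, adjusted p = 0.000469, edgeR) and −1.32 ± 0.35 for Gsr (adjusted p = 0.00611). Gclm at −0.87 ± 0.25 (adjusted p = 0.0103), Txnrd1 at −0.60 ± 0.25 (adjusted p = 0.0633), Prdx1 at 0.66 ± 0.25 (adjusted p = 0.0400) and Hmox1 at −0.43 ± 0.58 (adjusted p = 0.587) did not pass. Over all 9444 genes other than Nfe2l2 1424 passed, or 15.1%, and 1022 of these, or 10.8% of the genes tested, were negative. None of the 6 antioxidant genes had a positive slope past the threshold in this fit.

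These slopes rested on the libraries with a high length correlation. With the length correlation in the model the slope was −0.57 ± 0.31 for Gclc (adjusted p = 0.547) and −0.29 ± 0.37 for Gsr (adjusted p = 0.841), and 1 gene of 9444 passed. Without the 6 libraries the slope was −0.45 ± 0.43 for Gclc (adjusted p = 0.842) and −0.36 ± 0.48 for Gsr (adjusted p = 0.898), and 0 of 8799 genes passed by edgeR, with 712 at an unadjusted p under 0.05. In that fit the slope was 0.11 ± 0.45 for Gclm, 0.24 ± 0.31 for Txnrd1 and −0.02 ± 0.25 for Prdx1. The call of Gsr was lost when any 1 of DMSO 1, DMSO 11, Pac A6, D4, F10 or H9 was left out (adjusted p 0.0124 to 0.0539), while that of Gclc held in all 29 such fits (adjusted p up to 0.00795). Over these 29 fits the slope of Gsr ran from −1.81 to −1.08 and that of Gclc from −1.69 to −1.29. Without Pac G9, the library high in both Nfe2l2 and Gsr, 5 of the 6 genes passed, beside 28.6% of all 9348 genes tested in that fit. These were Gclc, Gclm, Txnrd1 and Gsr with negative slopes and Prdx1 with a positive one. The slope of Prdx1 ran from 0.47 to 0.81 over the 29 fits.

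**Figure D4:**
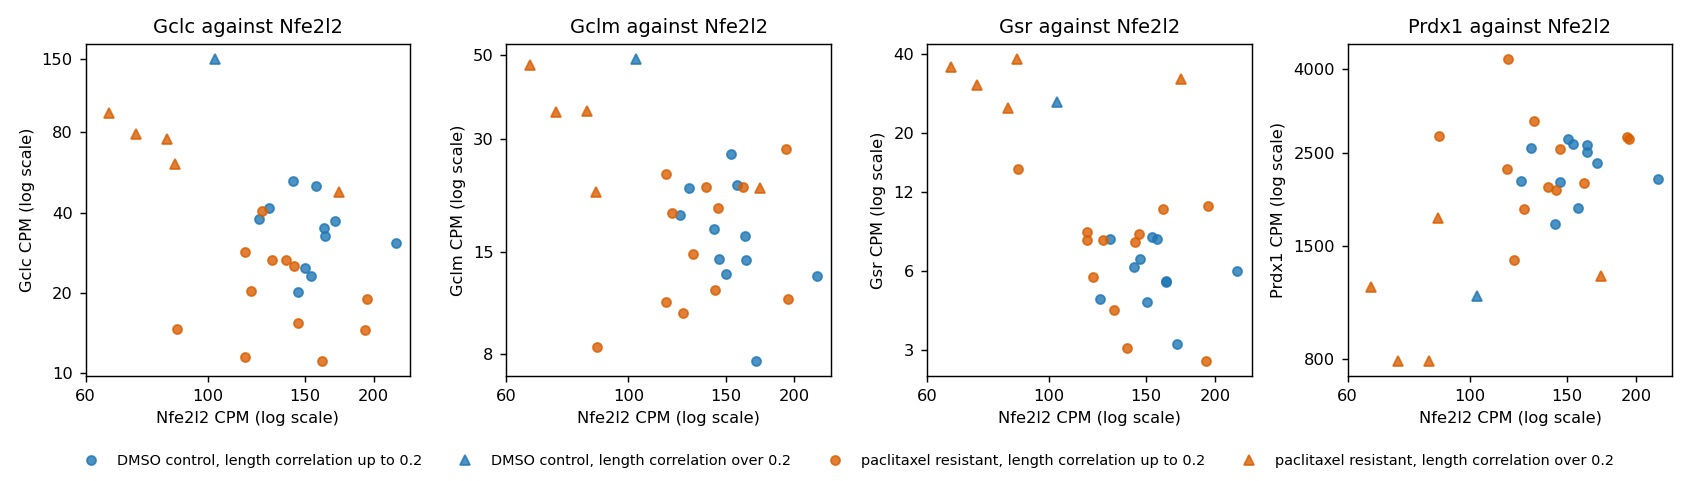
Level of Gclc, Gclm, Gsr and Prdx1 (y axes) against Nfe2l2 (x axes), in TMM-normalized CPM on log axes, 1 point a library; triangles are the 6 libraries with a length correlation over 0.2. The triangles hold 5 of the 6 lowest Nfe2l2 levels, from 66.3 to 103 CPM, and the one at 173 CPM is Pac G9.

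The genes most alike to each antioxidant gene across the 29 libraries, after removing treatment means, were of mixed function. They were picked by Pearson r of log2 CPM among genes with a mean of at least 10 CPM, and since 6 libraries stood apart the r is given only as the measure of likeness. For Gclc they were Rcc2 (r = 0.92), Ythdf1 (0.91) and Kpnb1 (0.90), and for Prdx1 Psmb2 (0.95), Skp1a (0.945) and Dpy30 (0.94). For Gsr they were Kat6a (0.83), Anp32b (0.83) and Brd2 (0.82), and for Txnrd1 Nucks1 (0.86), Shmt2 (0.86) and Ppp2ca (0.82). For Gclm they were Eif3b (0.81), Ppp2r5d (0.80) and Ppm1a (0.77), and for Hmox1 AC165962.1 (0.69), Mrpl10 (0.69) and Pla2g12a (0.67). For Nfe2l2 they were Lamp2 (0.84), Commd3 (0.80) and Cd22 (0.79). None of these places was held by another of the 10 genes. Within the set the highest r over the 29 libraries was 0.80, for Txnrd1 and Gsr, and the lowest −0.74, for Gclc and Prdx1.

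The rest of the pathway was read from 7 lists with 126 genes beside the 10, of which 87 were tested between treatments and 5 passed, 4 lower and 1 higher in paclitaxel resistant lines, beside 2.20% of all tested genes, the share against which each list's count below stands. Among regulators of NRF2, 1 of 12 tested genes fell and 0 rose. This was Dpp3, a peptidase that binds KEAP1, with 37.4 to 86.2 CPM (median 70.05) in DMSO control and 14.7 to 52.2 CPM (median 39.2) in paclitaxel resistant lines, and a log2 fold change of −0.86 ± 0.14 (SE, adjusted p = 0.000336, edgeR). Syvn1, a ubiquitin ligase, was at −0.66 ± 0.24 (adjusted p = 0.0857) and Mafg, a partner of NRF2, at 0.98 ± 0.38 (adjusted p = 0.106). Mafg ran from 19.02 to 73.4 CPM in the 6 libraries of high length correlation, 5 of which lay above all others, and from 0 to 25.8 CPM in the other 23. Keap1 itself was at 0.02 ± 0.19 (adjusted p = 0.959), a gene added to the named ones after its value was seen.

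In the glutathione and cystine list 0 of 20 tested genes passed, and the lowest p belonged to Gpx1, a glutathione peroxidase, at −0.61 ± 0.16 (adjusted p = 0.0183), Lancl1 at 0.46 ± 0.19 and Chac2 at −0.34 ± 0.17. Gpx1 passed, as lower, in 5 of 12 alternative fits that left out no single library, among them DESeq2, thinning and the length correlation in the model. In the thioredoxin and peroxiredoxin list 0 of 15 passed, with Msrb1 at −0.56 ± 0.16 (adjusted p = 0.0264), Msra at −0.59 ± 0.19 and Txn1, thioredoxin, at −0.54 ± 0.20. Of these Msrb1 passed, as lower, without the libraries labelled DMSO 12 and Pac H9, and Txn1, as lower, with the length correlation in the model. Of the genes of NADPH supply 0 of 12 passed, with G6pdx, the entry enzyme of the pentose phosphate path, at −0.65 ± 0.22 (adjusted p = 0.0627), Me2 at −0.43 ± 0.17 and Nadk at 0.37 ± 0.15. Gpx1, Lancl1, Msra and G6pdx, like the antioxidant genes, overlapped between treatments.

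In the heme and iron list Fth1, the ferritin heavy chain that stores iron, was the 1 of 8 tested genes to pass, and it fell. It ran from 2431 to 3857 CPM (median 3191) in DMSO control and from 755 to 2888 CPM (median 1806) in paclitaxel resistant lines, 12 of which lay under every DMSO control line, with a log2 fold change of −0.69 ± 0.14 (SE, adjusted p = 0.00316). Slc48a1 was at 0.58 ± 0.25 and Hmox2 at −0.41 ± 0.23. Ccs, the copper chaperone of superoxide dismutase, was the 1 of 6 genes of the superoxide and catalase list to pass. It fell by 0.52 ± 0.12 on the log2 scale (adjusted p = 0.00592). The call was lost in 6 of 29 fits that left out 1 library, those without DMSO 1, 6, 8, 9 or 10 or Pac H1. Over the 29 fits the log2 fold change of Ccs ran from −0.57 to −0.46, with an adjusted p (edgeR) up to 0.0155. Sod1, whose protein Ccs loads, was at 0.95 ± 0.30 (adjusted p = 0.0443) and Sod2 at −0.24 ± 0.11. Sod1 was apart in the 6 libraries of high length correlation, with 159 to 320 CPM against 33.8 to 129 in the other 23, and it passed, as higher, in 2 of the 12 alternative fits, without DMSO 11 and Pac C3 and with total counts in the model. Other genes of these lists were low there, with Txn1 at 1913 to 5045 CPM in the 6 against 4588 to 10821 and Gpx1 at 307 to 604 against 546 to 1272.

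Among glutathione transferases and detoxification genes 1 of 15 tested genes rose and 1 fell. Gsto1, an omega-class glutathione transferase, ran from 161 to 316 CPM (median 217) in DMSO control and from 64.7 to 168 CPM (median 91.0) in paclitaxel resistant lines. Of the 17 paclitaxel resistant lines 16 lay under every DMSO control line, and the log2 fold change was −1.11 ± 0.14 (SE, adjusted p = 1.28e-05). Gstm1, a mu-class transferase with close paralogs that could share its reads, ran from 0.749 to 20.2 CPM (median 2.33) in DMSO control and from 1.57 to 79.8 CPM (median 29.4) in paclitaxel resistant lines, 10 of which lay above every DMSO control line, with a log2 fold change of 2.91 ± 0.56 (SE, adjusted p = 0.00134). Ephx1, an epoxide hydrolase, was at 3.44 ± 0.84 (adjusted p = 0.0107), with up to 4.41 CPM in DMSO control and 128 CPM in Pac G9, the next paclitaxel resistant library being at 16.7. Without Pac G9 the mean of Ephx1 over paclitaxel resistant lines was 5.20 CPM in place of 12.4, and it did not pass the filter on low counts. Over the 12 alternative fits 1 to 2 genes of this list rose and 1 to 3 fell. The 3 fell in the likelihood ratio test, in DESeq2 and with total counts in the model. In these fits 448, 491 and 302 of all 9445 genes passed, against 208 in the main fit. The added ones, of which Ptgr1, Mgst3 and Akr1a1 were named after their values were seen, were Ptgr1 (lower, in 8 of 12), Ephx1 (higher, in 5), Mgst3 (lower, in 4) and Akr1a1 (higher, in 3). All 5 calls of Ephx1 were made with Pac G9 among the libraries. The parental library held 130 CPM of Gsto1, below every DMSO control line, and 8.95 CPM of Gstm1. In a fit without the libraries labelled DMSO 12 and Pac H9, and in one with the length correlation in the model, the calls of Dpp3, Fth1, Ccs, Gsto1 and Gstm1 held. Without the 6 libraries of high length correlation Ccs did not pass (−0.50, adjusted p = 0.0159), nor did it with no filter on low counts (−0.54, adjusted p = 0.0102), while the other 4 passed in both. After thinning every library to 480919 counts Dpp3 (−0.72, adjusted p = 0.0144) and Ccs (−0.53, adjusted p = 0.0238) did not pass, and Gstm1 did not pass the filter on low counts.

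**Figure D5:**
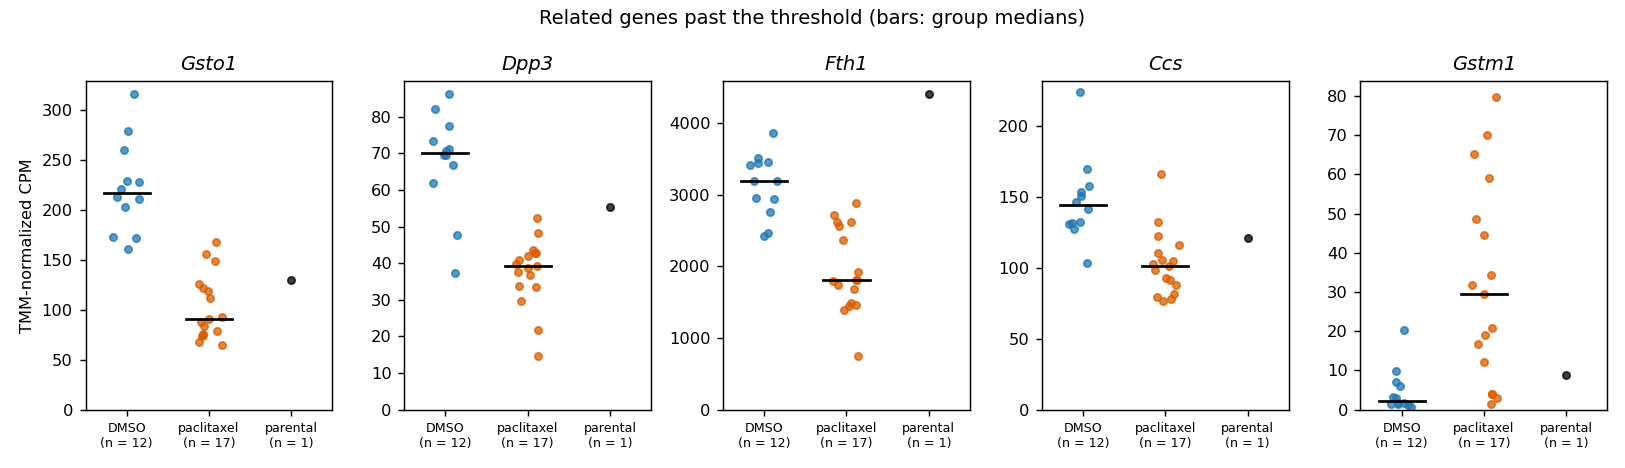
Level of the 5 related genes past the threshold in each library, in TMM-normalized CPM on linear axes from 0; bars are group medians. Gsto1, Dpp3, Fth1 and Ccs are lower in paclitaxel resistant lines (medians 91.0, 39.2, 1806 and 102 CPM) and Gstm1 is higher (29.4 CPM), while the parental point lies below the DMSO control median for Gsto1, Dpp3 and Ccs.

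The median log2 fold change was 0.20 for the NRF2 regulators, 0.09 for glutathione and cystine, −0.05 for thioredoxin and peroxiredoxin, 0.07 for NADPH supply, −0.38 for heme and iron, −0.07 for superoxide and catalase and 0.07 for transferases and detoxification, against 0.07 over all tested genes. On Nfe2l2, 5 of the 12 NRF2 regulators, 3 of the 20 glutathione and cystine genes and 1 of the 6 superoxide and catalase genes had a negative slope past the threshold, beside 10.8% of all genes. The lists of thioredoxin and peroxiredoxin (15 tested), NADPH supply (12), heme and iron (8) and transferases and detoxification (15) had 0 negative ones. A positive slope past the threshold was held by 1 thioredoxin and 1 superoxide gene and by 0 genes of the other lists, beside 4.26% of all genes. These calls are those of the fit without the length correlation, with which 1 gene of 9444 passed.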

How the data were processed

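RNA of 30 cell lines, 1 library each, was counted from the 3′ ends of transcripts after library making in 2 subpools. Reads were aligned by the authors with STAR 2.5.1b to the mouse build GRCm38, and they deposited whole-number counts per gene, without normalization or filter. The annotation used here for symbols and positions was gencode M21, which gave a symbol for 55141 of 55401 identifiers. No column was left unused (0). Whether molecular identifiers were collapsed is not given in the sources used here, so counts may not be independent molecules and limits cover counting error only.

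Differences and slopes were tested with edgeR 4.0.16 in R 4.3.3 (TMM, filterByExpr, quasi-likelihood F test, Benjamini-Hochberg adjustment over all tested genes, threshold 0.01) and spread with limma 3.58.1 on log2 CPM with a prior count of 2, with the parental library outside. SE were taken from the F statistic. Rank-sum tests used 100000 permutations, two-sided and unadjusted, for 9 genes, Srxn1 having no counts. The 10 genes, the lists and the tests were chosen with earlier results of these data known. Named were the 10 genes and, of each list, genes past the threshold and, where fewer than 3 passed, those of lowest p up to 3. The code was tested on simulated data. Alternatives were the likelihood ratio test, DESeq2 1.42.0, RLE factors, no filter, a threshold of 0.05, a prior count of 0.5, squared deviations, total counts as a covariate, thinning to 480919 counts, and left-out libraries. The length correlation, as a covariate or a limit of 0.2, and leaving out single libraries in the slope test were added after the data were seen.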

Additional observations from a re-analysis of the deposited data

How the results depend on the processing

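Over all alternatives, 0 of the antioxidant genes tested passed 0.01 between treatments. All 7 were tested in each but thinning, where Hmox1, Gclm and Gsr did not pass the filter on low counts and 4 were tested. The number of genes past the threshold in all, 208, was 448 with the likelihood ratio test, 491 with DESeq2, 127 after thinning, where 5167 genes were tested, 714 at a threshold of 0.05, 331 with the parental library as a group, 321 without the libraries labelled DMSO 12 and Pac H9, 338 without DMSO 11 and Pac C3, and 421 with the length correlation. Leaving out 1 library gave 139 to 299. The difference of Hmox1, −0.01, became 0.0294 with the likelihood ratio test, 0.0394 with DESeq2, 0.0002 with RLE factors, 0.0052 with total counts, 0.0028 without the 6 libraries of high length correlation and 0.0562 without DMSO 11 and Pac C3, and ran from −0.21 to 0.12 when 1 library was left out. That of Gclc became 0.10 without DMSO 11 and Pac C3 and ran from −0.46 to 0.12 with 1 library out. With the length correlation Gclm went to −0.0121, Txnrd1 to −0.0232 and Prdx1 to 0.0205, and without the 6 libraries Txnrd1 went to −0.0493 and Prdx1 to 0.11. In medians of the rank-sum test, thinning moved Hmox1 to 0.105, Gclm to −2.08 and Txnrd1 to 4.48 CPM.

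The spread test called 5 genes, 0 on squared deviations (limma, 1141 at an unadjusted p under 0.05), 1 after thinning, 9 without libraries under 1000000 counts and 15 without DMSO 12 and Pac H9. Spread of Hmox1 became −0.0928 with a prior count of 0.5 and −0.30 on squared deviations, and that of Txnrd1 −0.0473 on squared deviations.

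The slope test called 1424 genes and 2 of the antioxidant genes. It called 667 and 1 with total counts as a covariate, 2172 and 4 without libraries under 1000000 counts, 755 and 1 without DMSO 11 and Pac C3, 9 and 0 in paclitaxel resistant libraries only, 0 and 0 in DMSO control libraries only (edgeR, 1495 at an unadjusted p under 0.05), 1 and 0 with the length correlation, and 0 and 0 without the 6 libraries. With 1 library out it called 343 (without DMSO 11) to 2678 (without Pac G9) genes and 1 to 5 antioxidant genes, and it called 661 without Pac F10, 672 without A6, 901 without DMSO 1 and 917 without Pac D4. The slope of Txnrd1 became 0.19 and that of Prdx1 −0.0116 with the length correlation, and Gclm went to 0.11, Txnrd1 to 0.24 and Prdx1 to −0.0197 without the 6 libraries. Why the counts moved was not tested, other than that fewer samples or genes entered. No paired analysis was possible because the paclitaxel resistant lines carry well names and share no replicate numbers with the DMSO control lines.

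Low totals limit the genes with few counts: Srxn1 could not be compared, Slc7a11 and Nqo1 rest on few counts and did not pass in the edgeR fit with no filter (adjusted p = 0.186 and 0.300), and Hmox1, Gclc, Gclm and Gsr rest on under 20 counts in several libraries.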
